A study of Mus musculus with 8 samples.

Results

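The 10 genes Lrrc9, Ccdc192, Fscn3, Rimklb, Lrrc74a, Dcdc2c, Tmco5, Iqub, Efhb and Fbxl13 were chosen by their array signal, which was higher in the sperm of mice on either of 2 restricted diets than in sperm of mice on control diet. They are 10 of 19411 genes measured, and 10 of the 13587 genes that were bright enough on average to be tested. Each was measured by 1 probe set, a group of probes that report 1 transcript. The choice used the diet differences in sperm, so those differences are described here without a test. RNA was measured on 8 Affymetrix arrays, 1 per sample, from C57/Bl6 mice. Control diet sperm had 3 arrays, low protein diet sperm 2 and caloric restriction sperm 1; control and low protein epididymis had 1 each. Males on control or low protein diet were kept on it to an age of 9 to 12 weeks. For caloric restriction the labels give no age, and age and diet cannot be told apart there. Sperm came from the caudal epididymis, the tail of the duct in which sperm mature and are stored. Per the labels, preparations were more than 99.5% pure by microscopy and were rejected if PCR detected the tissue transcripts Actb or Myh11. The labels name no separate animals for the replicates, so the spread between arrays may be technical.

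A mature sperm makes almost no RNA, and what it carries is mostly left over from the spermatid, the haploid cell that builds the tail and head. The tail is a motile cilium whose core, the axoneme, has 9 pairs of fused microtubules. Radial spokes reach from each pair toward the central pair of microtubules, and the nexin-dynein regulatory complex links neighbouring pairs; both help to control the dynein motors. Inner proteins line the microtubules and stiffen them. Iqub is a radial spoke protein of mouse sperm, Efhb encodes a microtubule inner protein, and Fbxl13 is the counterpart of an algal subunit of the nexin-dynein regulatory complex. Dcdc2c carries doublecortin domains, which bind microtubules. Fscn3 is the testis member of the fascins, which bundle actin filaments, and Tmco5 encodes a membrane protein with a coiled coil. Rimklb encodes a ligase that joins glutamate to N-acetylaspartate or to citrate. Lrrc9 and Lrrc74a encode leucine-rich repeat proteins, and Ccdc192 a coiled-coil protein.

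Since all 10 genes were higher in sperm of both restricted diets, the DNA just before their RefSeq transcript starts was searched for the cores of 2 motifs used in germ cell and cilium genes. GTTGCC is the core of the X-box, which RFX factors bind in cilium genes, and TGACGT is the core of the cAMP response element, which CREM binds in spermatids. Windows of 250 bases before the start, from RefSeq on GRCm38.p6, were matched by symbol for 8 of the 10 genes. Both strands were searched, and the motifs share no match. GTTGCC was found before Fscn3, Lrrc74a, Tmco5 and Fbxl13, 4 of 8 genes, against 11.8% of 27025 genes in the same table. TGACGT was found before 1 gene, Dcdc2c, against 7.29% of genes. Lrrc9, Rimklb and Iqub held neither run of letters in these windows. The windows of Lrrc9, Rimklb and Dcdc2c lay wholly inside the annotated span of their gene (250 of 250 bases), before a transcript that starts within it, and that of Fbxl13 in part (93 bases). A match is a description of the sequence and not a binding site. Fscn3, Lrrc74a and Tmco5 are shown because their GTTGCC lies outside the annotated gene; the capitals mark it, and bases inside the gene were left out. They lie at chr6:28427651-28427869 (Fscn3), chr12:86734119-86734344 (Lrrc74a) and chr2:116878455-116878692 (Tmco5), all on the plus strand.
Fscn3: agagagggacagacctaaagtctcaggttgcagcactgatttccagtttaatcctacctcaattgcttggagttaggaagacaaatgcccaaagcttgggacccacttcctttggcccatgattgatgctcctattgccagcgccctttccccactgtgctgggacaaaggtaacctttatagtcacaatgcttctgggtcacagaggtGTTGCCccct
Lrrc74a: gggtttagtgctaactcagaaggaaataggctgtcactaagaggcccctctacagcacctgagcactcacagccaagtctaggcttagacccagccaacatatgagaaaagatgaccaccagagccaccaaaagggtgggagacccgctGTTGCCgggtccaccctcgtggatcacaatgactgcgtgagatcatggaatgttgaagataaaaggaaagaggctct
Tmco5: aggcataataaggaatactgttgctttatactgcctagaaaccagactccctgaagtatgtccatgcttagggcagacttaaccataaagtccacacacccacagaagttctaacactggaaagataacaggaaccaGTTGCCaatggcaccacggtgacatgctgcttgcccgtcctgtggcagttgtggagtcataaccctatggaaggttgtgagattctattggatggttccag
GTTGCC began 41, 101 and 113 bases before the start of Fscn3, Lrrc74a and Tmco5.

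The arrays differed in ways that touch every value below. Low protein sperm replicate 2 stood apart, its correlation with each other array of sperm being 0.715 to 0.862 across genes (genes are not independent replicates). Any other pair was at 0.849 or more, so the 2 ranges overlap slightly. The caloric restriction array was also less alike, at 0.849 to 0.884 with the control sperm arrays. Pairs among the control sperm arrays and low protein replicate 1 were at 0.931 or more. All 18 late spermatid markers were higher in sperm than in epididymis by limma, against 18.4% of all tested genes. Their mean log2 level was 8.92 to 9.23 on control, 9.66 and 9.97 on low protein and 10.09 on the caloric restriction arrays. The mean log2 level of 28 epididymal epithelium markers ran the other way, 7.31 to 7.49 on control sperm, 7.12 and 6.81 on low protein and 6.98 on caloric restriction, against 8.13 and 7.99 in epididymis. For 14 smooth muscle markers it was 7.26 to 7.50, 7.00 and 6.69, and 7.10, against 9.94 and 9.96. In bulk RNA, fewer cells of a type and less RNA per cell cannot be told apart, and the part of other cells in the diet differences was not tested. The array profiles of the other tissue lists are given after the gene results.

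The radial spoke gene Iqub had log2 intensities of 6.24, 5.92 and 5.77 on the 3 control sperm arrays, 7.13 and 7.02 under low protein, 8.33 under caloric restriction, and 4.08 and 4.26 in control and low protein epididymis. Every restricted diet array was above every control array, by at least 0.78 on the log2 scale, and both epididymis arrays were below all sperm arrays. Iqub was 1.10 ± 0.19 (SE; 2 low protein and 3 control arrays) higher on the log2 scale under low protein, 2.14-fold. The single caloric restriction array was 2.36 ± 0.24 higher, 5.14-fold, with its spread borrowed from the other sperm groups.

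The inner protein gene Efhb read 5.98, 5.60 and 5.69 in control sperm, 6.76 and 6.84 under low protein, 7.90 under caloric restriction, and 3.92 and 3.62 in epididymis (log2). It was among the dimmer of the tested genes, with 1 control sperm array under the log2 level of 5.69 that marked the lowest 30% of genes. It was 1.04 ± 0.18 higher under low protein and 2.15 ± 0.22 higher under caloric restriction. The nexin-dynein regulatory complex gene Fbxl13 read 6.17, 5.85 and 6.06 in control sperm, 6.98 and 7.17 under low protein, 8.15 under caloric restriction, and 3.95 and 3.96 in epididymis. Its differences from control were 1.05 ± 0.17 and 2.12 ± 0.22 on the log2 scale. In both genes the control and restricted arrays did not overlap and the caloric restriction array was the highest of the 8.

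Dcdc2c, the gene with doublecortin domains, had the largest change of the 13587 tested genes when the 3 restricted arrays were set against the 3 controls, 1.72 ± 0.34 on the log2 scale or 3.29-fold. Its log2 levels were 6.30, 5.89 and 5.73 in control sperm, 7.06 and 7.46 under low protein, 8.55 under caloric restriction, and 4.20 and 4.69 in epididymis. Its control arrays spread more (SD 0.29, n = 3) than those of Fscn3 (SD 0.03, n = 3), and control replicate 1 was its highest control. The caloric restriction array was 2.58 ± 0.28 above control, 5.96-fold, and the low protein arrays were 1.29 ± 0.22 above it.

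Tmco5, the membrane protein gene, read 6.39, 5.78 and 5.84 in control sperm, 7.15 and 7.21 under low protein, 8.36 under caloric restriction, and 4.11 and 4.17 in epididymis (log2). It had the widest control spread of the 10 genes (SD 0.33, n = 3), and its lowest restricted array was still 0.76 above its highest control. It was 1.18 ± 0.22 higher under low protein and 2.36 ± 0.27 higher under caloric restriction.

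The fascin gene Fscn3 had another order of diets. Its log2 levels were 7.06, 7.01 and 7.08 in control sperm, 8.02 and 8.41 under low protein, 7.96 under caloric restriction, and 5.66 and 5.51 in epididymis. Here low protein replicate 2 was the highest array, and the caloric restriction array was the lowest of the 3 restricted ones. Fscn3 was 1.16 ± 0.18 higher under low protein (2.24-fold) and 0.91 ± 0.22 higher under caloric restriction (1.88-fold).

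Rimklb, the glutamate ligase gene, read 7.31, 7.13 and 7.19 in control sperm, 8.18 and 8.51 under low protein, 9.41 under caloric restriction, and 5.71 and 5.36 in epididymis (log2). Control epididymis was the 1 epididymal value among the 10 genes above the log2 level of 5.69. Rimklb was 1.14 ± 0.17 higher under low protein and 2.20 ± 0.22 higher under caloric restriction, so the low protein difference was 2.20-fold and that of the caloric restriction array 4.58-fold.

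Among the leucine-rich repeat genes, Lrrc74a read 7.80, 7.55 and 7.72 in control sperm, 8.68 and 8.96 under low protein, 9.14 under caloric restriction, and 4.78 and 4.76 in epididymis (log2). The caloric restriction array was 0.18 above the higher low protein array, less than the 0.28 between the low protein arrays. Lrrc9 read 6.79, 6.71 and 6.63 in control sperm, 7.76 and 7.88 under low protein, 8.66 under caloric restriction, and 4.55 and 4.72 in epididymis. Its gap between the highest control and the lowest restricted array, 0.97, was the widest of the 10 genes. Lrrc74a differed from control by 1.13 ± 0.17 and 1.46 ± 0.22 and Lrrc9 by 1.11 ± 0.16 and 1.95 ± 0.20 under low protein and caloric restriction.

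The coiled-coil gene Ccdc192 read 5.74, 5.45 and 5.51 in control sperm, 6.70 and 6.74 under low protein, 7.97 under caloric restriction, and 3.57 and 4.20 in epididymis (log2). Its control level was near the limit for testing, with 2 of 3 control arrays under the log2 level of 5.69. It was 1.15 ± 0.17 higher under low protein and 2.40 ± 0.21 higher under caloric restriction, 2.23-fold and 5.29-fold.

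**Figure D1:**
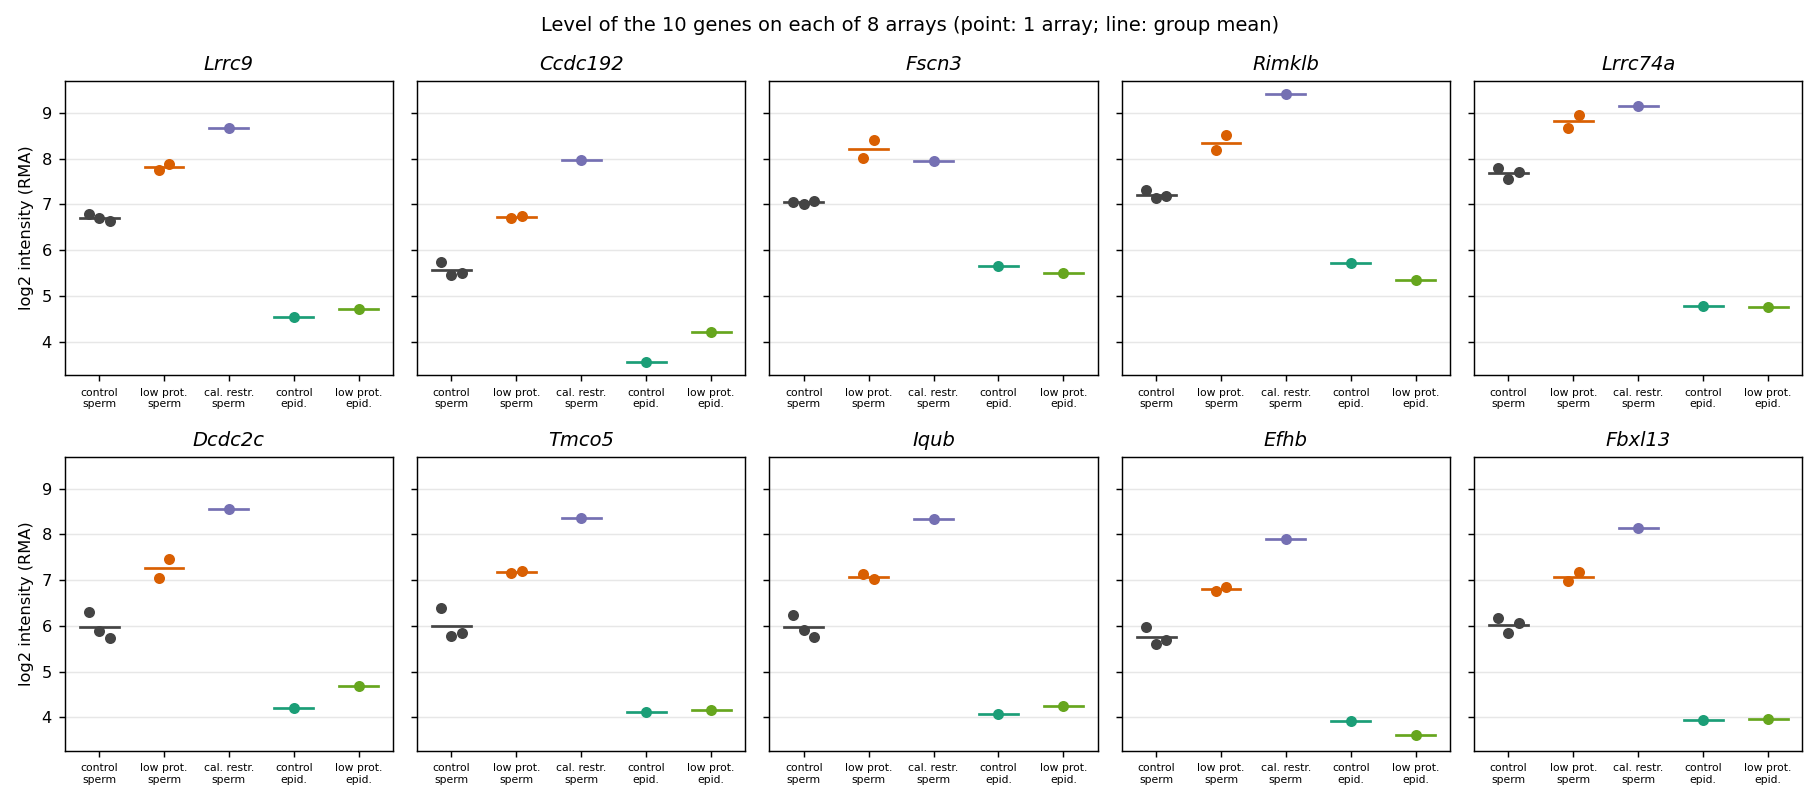
Log2 intensity (vertical axis) of each of the 10 genes on the 8 arrays, by group (horizontal axis); each point is 1 array and each line the group mean. In each panel the restricted sperm arrays lie above the control sperm arrays and the epididymis arrays lie lowest; Fscn3 is the panel in which caloric restriction (7.96) lies below both low protein arrays (8.02 and 8.41).

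Over the 10 genes, the difference from control under low protein lay in a narrow range, 1.04 to 1.29 on the log2 scale, while that of the caloric restriction array ran from 0.91 to 2.58. The 2 contrasts share their 3 control arrays. Both low protein arrays were above all controls in 10 of 10 genes, a count set by the choice, against 18.8% of tested genes. In the contrast of all restricted arrays with control, the 10 genes held places between 1 and 230 of 13587 when ranked from the largest rise, with changes of 1.08 to 1.72. Groups did not overlap in 10 of 10 genes, a count fixed by the choice, against 15.0% of tested genes. All 10 were past an adjusted p of 0.05 by limma, against 2.72% of tested genes higher, which also restates the choice. That count of called genes rested on few arrays: limma called 369 genes higher and 4 lower with all arrays and 0 genes when any control array or the caloric restriction array was left out (1728 to 3406 genes then had an unadjusted p under 0.05). Without a single array in turn, the differences of the 10 genes between restricted and control arrays ran from 0.94 to 2.03, the extremes coming from the fits without low protein replicate 2 and replicate 1. Control replicate 1 was the highest control array in 9 of 10 genes, all but Fscn3, and the mean of the 10 genes on it was 0.18 above the control mean.

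**Figure D2:**
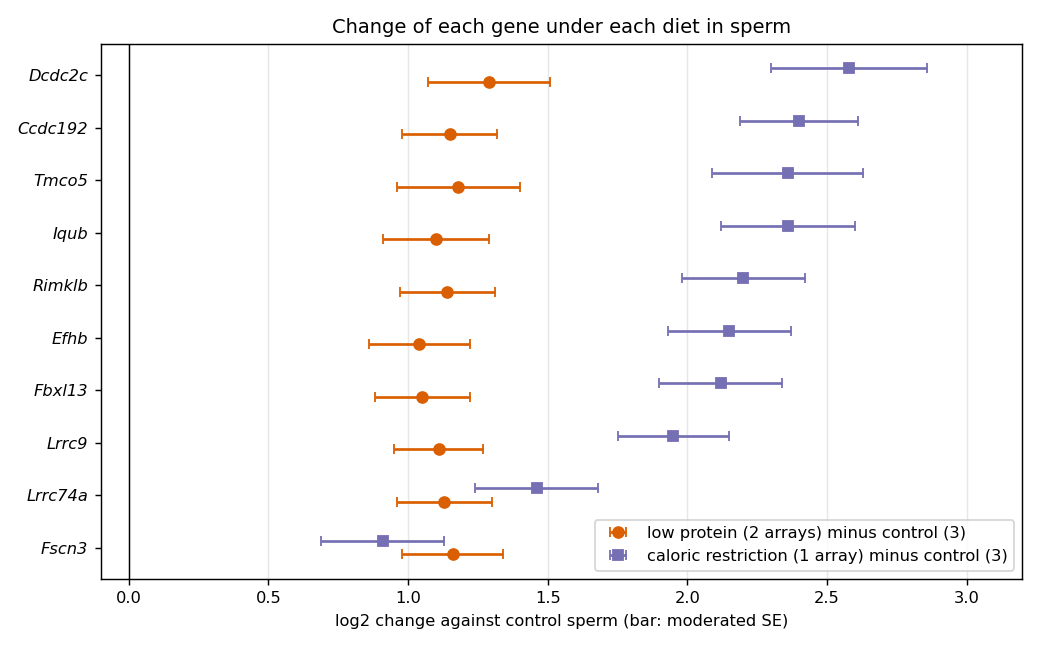
Log2 change against control sperm (horizontal axis) of each gene (vertical axis) under low protein (circles, 2 arrays) and caloric restriction (squares, 1 array), with bars for the moderated SE. The low protein values lie between 1.04 and 1.29, and the caloric restriction values between 0.91 (Fscn3) and 2.58 (Dcdc2c).

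Low protein and caloric restriction sperm were then set against each other. Both diets' values entered the choice of the genes and caloric restriction had 1 array, so the differences of the 10 genes are given as a description with no test. The caloric restriction array was above both low protein arrays in 9 of 10 genes, all but Fscn3, against 30.1% of tested genes. Dcdc2c differed by -1.29 ± 0.30 on the log2 scale (low protein minus caloric restriction), Iqub by -1.26 ± 0.25 and Ccdc192 by -1.25 ± 0.22. Tmco5 differed by -1.18 ± 0.29, Efhb by -1.10 ± 0.24, Fbxl13 by -1.07 ± 0.23, Rimklb by -1.06 ± 0.23 and Lrrc9 by -0.84 ± 0.21. Lrrc74a differed by -0.32 ± 0.23 and Fscn3 by 0.26 ± 0.24. With the choice made on both diets and 1 caloric restriction array, these SE do not decide which of the 10 genes differ between the diets. Over all genes, limma called 0 of 13587 between the diets (0.0%), with 1316 at an unadjusted p under 0.05, and eBayes with trend and robust called 31.

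Sperm and epididymis were compared with diet as an additive term. The choice did not use this contrast, but it did use the control and low protein sperm values that enter it. The adjusted p values are therefore not read as support. Each of the 10 genes was higher in sperm, by 2.01 to 3.45 on the log2 scale (4.02-fold to 10.93-fold), with adjusted p by limma from 3.71e-05 to 0.000559. Lrrc74a rose most, by 3.45 ± 0.25 (SE; 5 sperm arrays against 2 of epididymis, since caloric restriction was fitted by a separate term and adds nothing). Lrrc9 rose by 2.60 ± 0.21, Fbxl13 by 2.57 ± 0.23, Efhb by 2.47 ± 0.27, Tmco5 by 2.42 ± 0.27 and Iqub by 2.33 ± 0.23. Ccdc192 rose by 2.24 ± 0.17, Rimklb by 2.20 ± 0.29, Dcdc2c by 2.15 ± 0.23 and Fscn3 by 2.01 ± 0.27. The 95% interval of Lrrc74a, 2.89 to 4.01, lay above those of Ccdc192, Dcdc2c, Iqub, Fscn3 and Rimklb, and overlapped the others. Groups did not overlap in 10 of 10 genes, against 24.8% of tested genes.

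The median change of all tested genes between the tissues was -0.08, the 95th percentile 1.43, and 2.67% of the other tested genes were at or above the change of Fscn3. Limma called 18.4% of tested genes higher and 30.1% lower in sperm. In 9 of 10 genes, all but Rimklb, both epididymis arrays were under the level of 5.69, so these genes passed the filter through their sperm values and their count is not read as support. With no filter, each of the 10 was past the threshold as well (adjusted p by limma 1.45e-05 to 0.000366). This is not support either, since the same sperm values that the choice used enter that fit. Without the low protein epididymis array the changes ran from 1.39 to 2.91, and without the control epididymis array from 2.52 to 4.06. The first of these 2 fits compares the tissues within control diet only, and the second within low protein only. The gap between the 2 fits holds the low protein difference in sperm that the choice used. The changes with all arrays mix both.

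**Figure D3:**
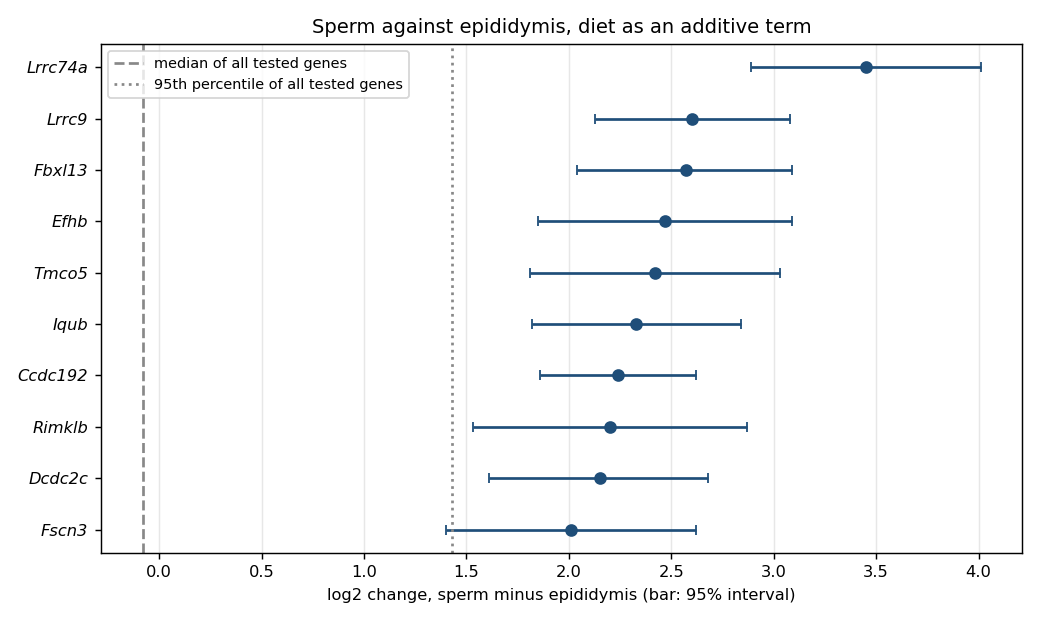
Log2 change of sperm over epididymis (horizontal axis) for each gene (vertical axis), with 95% intervals; the dashed and dotted lines mark the median (-0.08) and the 95th percentile (1.43) of all tested genes. Lrrc74a lies highest at 3.45 and Fscn3 lowest at 2.01.

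In epididymis, low protein and control could be compared on 1 array each, with no test. Low protein was higher in 6 of the 10 genes, against 46.7% of tested genes. Ccdc192 differed by 0.64 and Dcdc2c by 0.49 on the log2 scale, Iqub by 0.18, Lrrc9 by 0.17, Tmco5 by 0.05 and Fbxl13 by 0.02. Rimklb differed by -0.36, Efhb by -0.30, Fscn3 by -0.15 and Lrrc74a by -0.02. In sperm the low protein differences of the same genes were all above 1 on the log2 scale. Almost all of these epididymal levels were among the lowest 30% of genes, where the measurement was dim.

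Other genes of the structures of Iqub, Efhb and Fbxl13 had positive differences between restricted and control sperm: 10 of 10 nexin-dynein, 12 of 12 radial spoke and 18 of 18 inner protein genes tested. A positive sign was usual for sperm genes, since 13.9% of 2491 other genes higher in sperm than epididymis had a negative one. Most genes of these lists were called higher in sperm than epididymis by limma: 9 of 10, 11 of 12 and 15 of 18, against 18.4% of tested genes. Of 10 nexin-dynein regulatory complex genes besides Fbxl13, 2 rose in the contrast of restricted with control sperm by limma and 0 fell. Of all tested genes, 2.72% were called higher and 0.0294% lower. The share called among the 2491 other genes higher in sperm was not counted. The list counts here and below, set beside 2.72% or 5.53%, are therefore not read as particular to the lists. The median of the nexin-dynein list was 0.71, against -0.07 for all tested genes and 0.50 for the 2491 other genes higher in sperm. Tcte1, a subunit needed for sperm motility in mice, rose by 1.02 ± 0.17 (adjusted p by limma 0.0411). Iqcg, another subunit, rose by 1.13 ± 0.19 (adjusted p by limma 0.0411), while Iqca differed by 0.95 ± 0.32 (adjusted p by limma 0.125). Of 12 radial spoke genes tested besides Iqub, 4 rose and 0 fell (median 1.08). Nme5 rose by 1.29 ± 0.24 and the spoke head gene Rsph1 by 1.24 ± 0.26. Dydc1 had a larger difference, 1.40 ± 0.41, but was not called (adjusted p by limma 0.0956). Its log2 levels were 8.47 and 8.43 under low protein and 10.16 under caloric restriction. Of 18 microtubule inner protein genes besides Efhb, 4 rose and 0 fell (median 0.89). Tekt1, a tektin filament gene, rose by 1.16 ± 0.24. Enkur differed by 1.48 ± 0.38 (adjusted p by limma 0.0695) and Tekt2 by 1.11 ± 0.37 (adjusted p by limma 0.12).

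These lists were drawn up with earlier results of the same arrays known. On the single caloric restriction array, 5 of the 10 nexin-dynein, 8 of the 12 radial spoke and 12 of the 18 inner protein genes were above control past limma's threshold, against 5.53% of tested genes. That array has no replicate and its spread was taken from the other diets, so the count describes 1 array. Under low protein 0 were called in each list, as for all tested genes (0.0%). In the contrast of restricted with control sperm, where limma called 2.72% of tested genes higher, further lists were counted. Of 12 fascin and sperm head actin genes 4 rose (median 0.66), among them the actin capping gene Capza3, by 1.36 ± 0.20, and the head cytoskeleton gene Cylc2, by 1.38 ± 0.30. Of 14 genes listed for spermatid shaping and the manchette, which shapes the spermatid head, 5 rose (median 0.88), Cfap43 by 1.35 ± 0.26. This list is not of head shaping alone, as it holds Spag6l, which encodes a protein of the central pair of microtubules. Of 12 leucine-rich repeat genes 3 rose (median 0.97); Lrrc46 rose by 1.12 ± 0.22, while Lrriq1 differed by 1.51 ± 0.40 (adjusted p by limma 0.0779). No gene of these 3 lists fell.

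Few relatives of Dcdc2c and Rimklb were bright enough to test. Among 3 doublecortin family genes tested, 0 were called between restricted and control sperm (median -0.01); as limma called 2.72% of tested genes higher, that count is no result about them. Dcdc2a differed by 0.24 ± 0.17 (adjusted p by limma 0.405). Rimkla, the other ligase of the Rimklb family, differed by 0.14 ± 0.17 (adjusted p by limma 0.649), and Folh1, whose product splits N-acetylaspartylglutamate, by -0.74 ± 0.20 (adjusted p by limma 0.0809). Only these 2 of the 5 enzyme genes listed were tested. Whether these genes differ from Dcdc2c and Rimklb in their diet change was not tested.

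The diets were also set against each other for the lists. The median low protein minus caloric restriction change was -0.88 for radial spoke, -0.74 for inner protein and -0.43 for nexin-dynein genes. It was -0.63 for manchette, -0.27 for leucine-rich repeat, 0.12 for fascin and head actin, 0.21 for doublecortin and 0.07 for the glutamate enzyme genes. For late spermatid markers it was -0.13 and for earlier germ cell genes -0.12, against -0.02 for all tested genes. Among the 10 genes, Iqub, Efhb and Fbxl13 of the first 3 structures lay between -1.26 and -1.07, and Fscn3 at 0.26. No gene of these lists was called in that comparison (limma; 0.0% of tested genes).

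The mean difference from control of the 10 genes was 1.05 and 1.22 on the low protein arrays and 2.05 on the caloric restriction array. For late spermatid markers it was 0.59, 0.90 and 1.02, and for 14 earlier germ cell genes 0.36, 0.59 and 0.87. Against 2.72% of tested genes called higher by limma in the contrast of restricted with control sperm, 5 of 18 late spermatid genes rose, and of 8 earlier germ cell genes tested 3 rose, the helicase gene Ddx4 by 1.31 ± 0.25. Markers of motile ciliated epithelium, which also builds axonemes, had differences of 0.04, 0.39 and 0.08; of 8 tested 1 rose, the centriole gene Deup1, and that list shares Rsph4a with the radial spoke list. Epididymal epithelium markers differed by -0.30, -0.61 and -0.44, and smooth muscle markers by -0.39, -0.71 and -0.29. Fibroblast and matrix markers differed by -0.26, -0.45 and -0.12, leukocyte markers by 0.16, 0.21 and 0.23, and endothelial markers by -0.18, 0.15 and -0.20. Of the tested genes of these last 5 lists, 0 were called by limma in the contrast of restricted with control sperm. That is near the 2.72% of all tested genes called higher and 0.0294% lower, so the count is no result about them. In that contrast 1 of 21 epithelium, 1 of 14 smooth muscle and 0 of 9 fibroblast and matrix genes tested had a positive difference. Their medians were -0.64, -0.36 and -0.28, against -0.07 for all tested genes. For leukocyte genes it was 7 of 10 and for endothelial genes 1 of 4 (medians 0.26 and -0.14). On the caloric restriction array 1 epithelium gene was called higher (Cftr) and 1 lower (Gpx5), and 1 fibroblast and matrix gene lower (Bgn), against 5.53% and 0.0368% of tested genes. Although listed as an epithelium marker, Cftr was higher in sperm than epididymis on these arrays, by 1.99 ± 0.24 on the log2 scale (adjusted p by limma 0.00036). The mean epithelium and muscle levels were lower on each restricted array than on each control array, and their part in the higher level of the 10 genes was not tested.

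**Figure D4:**
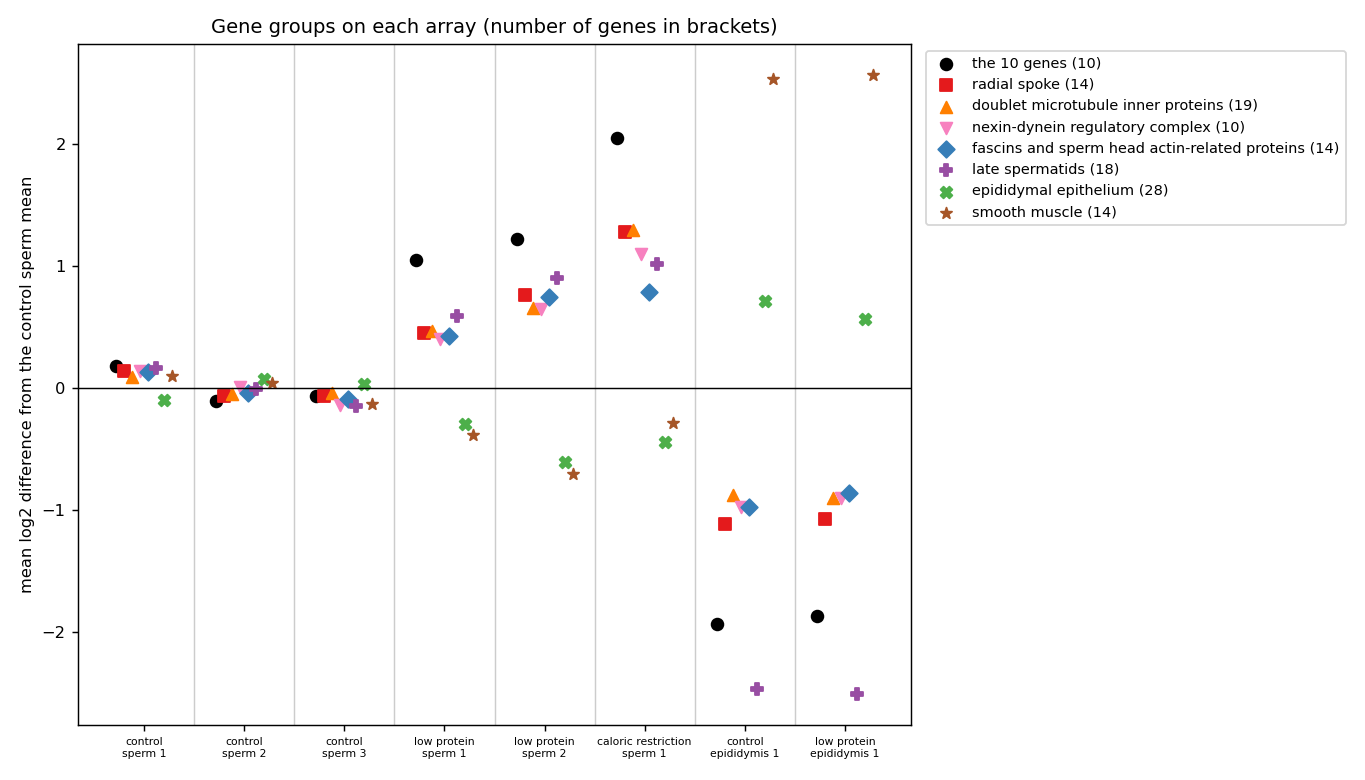
Mean log2 difference from the control sperm mean (vertical axis) of the 10 genes and 7 gene lists on each array (horizontal axis); the number of genes in each is in brackets. The 10 genes lie at 1.05, 1.22 and 2.05 on the restricted arrays, the epithelium markers at -0.30, -0.61 and -0.44, and the 10 genes fall to -1.94 and -1.87 in epididymis.

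The diet differences of the 10 genes were set beside those of other sperm genes. For the 2491 other genes called higher in sperm than epididymis, the median difference between restricted and control arrays was 0.50, with the 5th and 95th percentiles at -0.12 and 1.17. Under low protein the median was 0.47 and the 95th percentile 1.04, and under caloric restriction 0.47 and 1.84. Fscn3 lay within the range between restricted and control arrays, at 1.08, and on the caloric restriction array, at 0.91, where Lrrc74a lay within it too, at 1.46. The other genes, such as Dcdc2c at 1.72 and 2.58, lay above the 95th percentile in both, as the choice favours.

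The genes whose profile over the 8 arrays was most like the mean of the 10 were Wdr63, Maats1, Stat4, Adad1, Ttc23l, Nme5, Cfap69 and Spag6l, with Pearson's r from 0.997 to 0.9996. The arrays share tissue and diet differences, and 10.4% of 13577 genes had an r over 0.9, so a high value is common here. Wdr63 encodes a dynein intermediate chain, Maats1 a protein at the base of radial spokes, Cfap69 a flagellum protein and Spag6l a protein of the central pair of microtubules. Stat4 is a transcription factor. Nme5 was also counted in the radial spoke list and Spag6l in the manchette list. The profile includes the sperm values that the choice used, so the likeness is a description only. Wdr63 had levels of 5.99, 5.78 and 5.81 in control sperm, 6.41 and 6.51 under low protein, 6.99 under caloric restriction, and 4.76 and 4.84 in epididymis (log2). Its order of arrays was like that of the 10 genes, at a smaller size, since its difference between restricted and control arrays was 0.78 against 1.08 or more for each of them.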

How the data were processed

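The authors deposited log2 intensities for 33660 probe sets on 8 arrays, normalized by RMA according to the submitters' processing notes, with no version named. Their range showed the deposited values to be log2 (1.17 to 14.53, array medians 6.08 to 6.17). Probe sets with 1 gene symbol in the platform annotation (21222) were kept, several (1541) or none (10897) were not. Symbols were updated by gene identifier with a GRCm38 annotation, used for names, for the promoter windows and for gene limits around them. The probe set of highest mean stood for a gene, and the lowest 30% of 19411 genes by mean were not tested. Differences were tested two-sided by limma 3.58.1 (lmFit, eBayes; R 4.3.3) with Benjamini-Hochberg over 13587 genes at 0.05. Diet contrasts used the 6 sperm arrays; the tissue contrast used 8 arrays with diet as an additive term. No 2 arrays held the same values. The fits were tested on simulated data. The 10 genes and all lists were chosen with earlier results of these data known. Genes named from a list were up to 3 with the largest change between restricted and control sperm, and those given with values were picked from them, and Gpx5 named, after the values were seen; genes of like profile were the 8 of highest correlation. Alternatives were other normalizations, filters, probe set averages, eBayes with trend and robust, no diet term, and leaving out each array. The number of arrays limits the precision.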

Additional observations from a re-analysis of the deposited data

Results flagged for a closer look

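In 4 of the 10 genes the low protein difference had opposite signs in the tissues: every low protein sperm array was above every control sperm array, while the low protein epididymis array was below the control one. The sign in sperm was set by the choice of genes, so the count only reflects the sign in epididymis. There, low protein was above control in 46.7% of all tested genes, so a lower value is common. The epididymal log2 differences were -0.36 for Rimklb, -0.30 for Efhb, -0.15 for Fscn3 and -0.02 for Lrrc74a, and most of these levels were dim. The difference between the tissues was not tested, since the choice of genes used the sperm values and epididymis had 1 array per diet. No group had the 4 arrays needed to look for single outlying arrays.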

How the results depend on the processing

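Over all alternatives run, the 10 genes kept a positive difference from control in each sperm diet contrast. It was 0.94 to 2.03 for the restricted arrays together, 0.95 to 1.49 for low protein and 0.85 to 2.74 for caloric restriction. This sign restates the choice. Each restricted array lay above each control array, so leaving out 1 array could not reverse it. The 10 genes were higher in sperm than epididymis in each fit that tested them (1.39 to 4.06), and the 50% filter left 4 of the 10. Low protein against caloric restriction kept its sign in each gene. Counts of genes called by limma moved more. For the restricted arrays against control (373) the count was 589 after cyclic loess, 197 with the 50% filter, 153 by eBayes with trend and robust, and 0 to 1428 without 1 array: 0 without any control or the caloric restriction array, 1428 without low protein replicate 1 and 654 without replicate 2. For low protein (0, with 3406 genes at an unadjusted p under 0.05) it was 237 after cyclic loess and 0 to 5155, the latter without replicate 1. For caloric restriction (756) it was 298 to 2021 (298, 326 and 487 without control replicate 2, 3 and 1; 2021 without either low protein array). For low protein against caloric restriction (0) it was 135 after cyclic loess, 31 by eBayes with trend and robust, and 0 to 1956 (1956 and 317 without low protein replicate 1 and 2). For sperm against epididymis (6594) it was 2748 to 7236, the former without low protein epididymis. Calls higher in sperm were 37.9%, and 50.8% after cyclic loess, which moved the median of all genes from -0.08 to 0.05. The causes were not tested. Levels in epididymis, and some in control sperm, lay among the dimmest 30% of genes.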
